A study of Sus scrofa with 5 samples.

Results

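The 10 genes of the WNT pathway described here were measured in pig blastoids and in pig embryonic stem cells. WNT3, WNT5A and WNT6 encode secreted ligands, FZD7 a receptor that binds them, LGR5 a receptor for R-spondins, and DKK1, SFRP1 and SFRP2 secreted antagonists. AXIN2 and LEF1 are widely used as readouts of the pathway, and DKK1 and LGR5 are also among its common targets. These 10 members were taken by name from the 30029 genes of the count matrices, by a rule that uses no measured value. They were nevertheless chosen with earlier results of these data known, so their counts are not independent of the data.

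In the canonical pathway a WNT ligand binds a Frizzled receptor and an LRP co-receptor, the destruction complex of AXIN, APC, CK1 and GSK3 is inhibited, and beta-catenin accumulates and switches on targets together with LEF1 and the TCF factors. Secreted SFRP proteins bind the ligands, whereas DKK1 blocks the co-receptor. AXIN2 and DKK1 are negative feedback genes, because they are switched on by the pathway that they restrain. In early mammalian embryos the pathway is known for its part in primitive streak and mesoderm formation, and its inhibition is used to hold pig pluripotent cells undifferentiated.

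Porcine blastoids are blastocyst-like structures formed from pig embryonic stem cells (pESCs), and they were labelled as day 6 structures cultured in iBlastoid medium. The methods describe pESCs aggregated either directly in this medium or first in 4FXY medium, and the labels do not say which was used. iBlastoid medium holds LIF, activin A, IGF1, IL-6, sIL-6 Receptor α, BMP4, bFGF, CHIR99021, XAV939, SB431542, Y-27632, DZNep and TSA. Of these, CHIR99021 inhibits GSK3 and activates the canonical pathway, while XAV939 inhibits the tankyrases, stabilizes AXIN and dampens it, and every blastoid received both. Structures with a cavity were picked by hand and dissociated, and 2 10x libraries were sequenced. Nothing states that the 2 libraries came from separate inductions, so the tests measure the spread between these 2 libraries, which may be technical. The pESCs, which the methods trace to parthenogenetic blastocysts, were kept in 4FIXY medium on mouse embryonic fibroblast feeder cells, and gave 3 bulk libraries of polyA RNA named IVFP25, PA_4P7 and PAP25. 4FIXY holds activin A, IGF1, IL-6, sIL-6 Receptor α, Y-27632, XAV939 and the further WNT inhibitor IWR1, and 4FXY lacks the last. The first of these library names begins with the usual abbreviation of in vitro fertilization, and the labels and the methods name different library kits and sequencers.

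The single-cell libraries held 7369 and 8175 cells with at least 11223 and 9807 UMIs (unique molecular identifiers, which count RNA molecules), and the median cell had 29728 and 27588 UMIs. Between them 9 cell barcodes were shared. A cell was gated on POU5F1, CRABP1, GABRP, TP63 or COL3A1 when it held at least 3 UMIs of that gene, and its CPM (UMIs of a gene per 1000000 UMIs) reached both 100 and the level in empty droplets, taken as barcodes with 10 to 100 UMIs. Cells past exactly 1 gate were kept, in library 1 and library 2 respectively 814 and 1339 for POU5F1, 264 and 409 for CRABP1, 1043 and 1152 for GABRP, 839 and 758 for TP63 and 596 and 464 for COL3A1. A further 2473 and 2821 cells passed none and 1340 and 1232 passed more than 1. The other genes of each gate's marker list were set beside it, since a sum that holds the gating gene is largely fixed by the gate. All 6 other pluripotency genes were called higher in POU5F1-gated cells by the test described below, as were 5 of 6 other neural genes in CRABP1, 6 of 6 amnion genes in GABRP and 8 of 8 mesenchyme genes in COL3A1-gated cells. Of all genes, 25.7%, 20.4%, 26.7% and 26.6% were called higher in these gates. The neural genes SOX2 and OTX2 were higher in POU5F1 (2.04 and 1.56) as well as CRABP1-gated cells (1.91 and 1.19). NES, the neural gene not called in CRABP1-gated cells (0.15), was called higher in COL3A1-gated cells (1.93), and PAX6 also in GABRP-gated cells (0.88). The mesenchyme genes COL1A2 and PDGFRA were also called higher in CRABP1-gated cells (1.05 and 1.62). The pluripotency gene LIN28A was also called higher in GABRP (0.39) and TP63-gated cells (0.44). The amnion gene HAND1 was higher in COL3A1 (4.65) than in GABRP-gated cells (2.57), and ISL1, TFAP2A, IGFBP3 and GATA3 were also called higher in TP63-gated cells. The TP63 gate was not backed in this way. Of the 2 other surface ectoderm genes tested, GRHL3 was lower in TP63-gated cells (-1.03) and higher in CRABP1-gated cells (2.99), and TFAP2C was not called (0.20). Without TP63 the surface ectoderm list summed to 42.4 and 39.3 CPM in TP63-gated cells and to 84.6 and 103 CPM in CRABP1-gated cells. Without GABRP the amnion list summed to 880 and 812 CPM in GABRP-gated cells, close to the 818 and 785 CPM in COL3A1-gated cells. With the gating gene included, the summed level of 7 pluripotency genes was 779 and 916 CPM in POU5F1-gated cells and at most 159 CPM in any other gate, and that of 9 mesenchyme genes was 4369 and 4606 CPM in COL3A1-gated cells and at most 191 CPM elsewhere. CRABP1-gated cells had the highest sum of the neural list (3970 and 3902 CPM). Without CRABP1 this list summed to 235 and 232 CPM there and to 157 and 174 CPM in POU5F1-gated cells. GABRP-gated cells had the highest sum of the amnion list (1509 and 1430 CPM) and of the trophectoderm list (14145 and 13899.6 CPM), and TP63-gated cells that of the surface ectoderm list (321 and 301 CPM). COL3A1-gated cells also had the highest sums of cardiac (439 and 317 CPM) and hypoblast genes (366 and 393 CPM), and the part of such cells in the results was not tested. No cell type name is given to a gate, because a gate rests on 1 gene.

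In the bulk pESC libraries, SFRP1, SFRP2 and FZD7 were abundant, the 3 ligands, LGR5 and LEF1 were scarce, and DKK1 and AXIN2 lay between. In FPKM (fragments per kilobase of exon and per 1000000 mapped fragments), which allow genes to be compared, FZD7 stood at 82.5, 90.6 and 85.8 in IVFP25, PA_4P7 and PAP25 (86.3 ± 4.03, SD, n = 3). SFRP1 stood at 68.6, 81.8 and 88.8 FPKM (79.7 ± 10.3, SD, n = 3), and the ranges of these 2 genes overlapped. They ranked between 654 and 941 among all genes in each library. SFRP2 followed at 22.9, 28.4 and 26.4 FPKM (25.9 ± 2.76, SD, n = 3), below both of them in every library.

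AXIN2, the scaffold of the destruction complex, was the steadiest member, at 3.84, 3.80 and 3.79 FPKM (3.81 ± 0.0268, SD, n = 3). This value adds up 7 annotated transcripts, and the highest transcript in each library, not the same one throughout, averaged 1.66 FPKM. DKK1 was the fifth member with at least 1 FPKM in every library, at 1.32, 1.51 and 4.59 FPKM. Thus 5 of 10 members reached 1 FPKM in all 3 libraries, compared with 37.0% of the 29886 gene symbols. In a bulk library fewer expressing cells and less RNA per cell cannot be told apart.

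The ligands were near the floor. WNT3 was listed at 0.450, 1.46 and 0.692 FPKM and passed 1 FPKM in PA_4P7 only. WNT5A was listed at 0.399, 0.247 and 0.531 FPKM, and WNT6 at 0.0368, 0 and 0.158 FPKM. The rest of the ligand family was low as well: none of its 19 listed genes reached 1 FPKM in every library and 17 were below it in all 3. By contrast, 15 of 16 receptors and co-receptors and all 11 genes of the destruction complex list, which includes both tankyrases, reached 1 FPKM in every library, led by FZD7, FZD5 (45.2, 69.4 and 113 FPKM) and FZD2 (mean 69.7 FPKM) among the receptors. CTNNB1, which encodes beta-catenin, averaged 226 FPKM, and TCF7L1, a TCF factor known mainly as a repressor, averaged 85.8 FPKM.

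LEF1, DKK1 and LGR5 were highest in the same library, PAP25, and so were WNT5A, WNT6 and SFRP1. WNT3, SFRP2 and FZD7 were highest in PA_4P7, and AXIN2 in IVFP25. LEF1 was at 0.308 and 0.225 FPKM in IVFP25 and PA_4P7 and at 1.13 in PAP25. LGR5 was at 0.199 and 0.264 FPKM and at 1.82 in PAP25. Without PAP25 the mean of LEF1 went from 0.553 to 0.266 FPKM, that of DKK1 from 2.47 to 1.41 and that of LGR5 from 0.759 to 0.232, whereas AXIN2 hardly moved. Of the 23 common targets listed, 16 were highest in PAP25, LEF1, DKK1 and LGR5 included, 4 in IVFP25 (AXIN2, NKD2, NOTUM and ASCL2) and 3 in PA_4P7 (MIXL1, CCND1 and MYC). The share of all genes highest in PAP25 was not computed, so this count is not read as particular to targets. PAP25 also had the most symbols at 1 FPKM or more, 11868 against 11520 in IVFP25 and 11575 in PA_4P7. Among the targets highest in PAP25 were T (brachyury) at 40.6 FPKM against 4.41 and 3.09, and SP5 at 12.4 against 1.90 and 1.06. PAP25 was also highest in endoderm markers, with SOX17 at 26.1 FPKM against 1.73 and 1.82 and FOXA2 at 81.8 against 13.2 and 15.5, and the part of such cells in the member values was not tested. The 9 fibroblast genes, which would mark pig stromal cells, summed to 9.40, 8.28 and 10.1 FPKM, and the defining COL3A1 was at 0.0159, 0 and 0.0182 FPKM. The feeder cells were of mouse and reads were mapped to the pig genome, so these values cannot show how much feeder RNA was present.

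**Figure D1:**
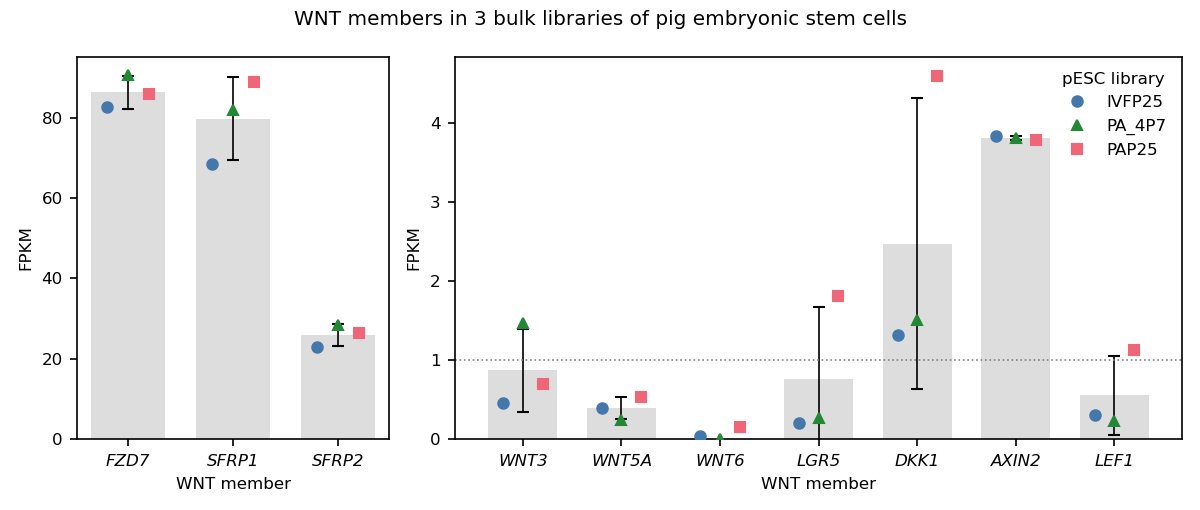
FPKM (vertical axis) of each WNT member in the 3 pESC libraries, with points for libraries, bars for means and error bars for SD (cut at 0), and with points only for WNT6, which is listed at 0 in PA_4P7. FZD7, SFRP1 and SFRP2 are in the left panel with a wider scale, and the dotted line marks 1 FPKM. PAP25 holds the highest LGR5, DKK1, LEF1, WNT5A, WNT6 and SFRP1.

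In day 6 blastoids each member had its own distribution over the gates, and 43 of the 50 combinations of member and gate passed the test (edgeR quasi-likelihood test on UMIs summed per library and gate, each gate against the mean of the other 4, adjusted p below 0.05 over 17927 genes). Such calls were common in this design, with 53.8% of all genes called in the POU5F1 gate, 41.7% in CRABP1, 48.8% in GABRP, 41.4% in TP63 and 52.4% in COL3A1, so the members' counts are read against these shares. In COL3A1-gated cells 6 of 10 members were called higher and 3 lower, where 26.6% of all genes were higher and 25.8% lower. In CRABP1-gated cells 6 were higher and 2 lower (20.4% and 21.2% of all genes). GABRP-gated cells had 2 higher and 8 lower (26.7% and 22.1%), TP63-gated cells 2 higher and 7 lower (21.2% and 20.2%), and POU5F1-gated cells 2 higher and 5 lower (25.7% and 28.1%). Median log2 fold changes of the members were 1.14 in COL3A1, 1.28 in CRABP1, -0.60 in GABRP, -0.83 in TP63 and -0.79 in POU5F1-gated cells, while those of all genes lay between -0.03 and 0.00. A call against this mean can rest on 1 other gate. SFRP1 was called lower in GABRP-gated cells (-0.26), yet it exceeded POU5F1 by 0.37 and TP63 by 0.41 there. AXIN2 was called lower in GABRP-gated cells (-0.33), but among single gates it differed from COL3A1 only (-1.21).

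The split of calls over all genes depended on scaling. With the trimmed mean of M values (TMM), 47.8% of calls were higher in POU5F1, 49.0% in CRABP1 and 54.7% in GABRP-gated cells, and with total UMIs alone 58.6%, 74.5% and 31.1%. The median of all genes then moved to 0.17 in CRABP1 and -0.18 in GABRP-gated cells. Among the member calls, 1 was lost with total UMIs alone, FZD7 in GABRP-gated cells (log2 fold change 0.29 with TMM and 0.11 without).

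**Figure D2:**
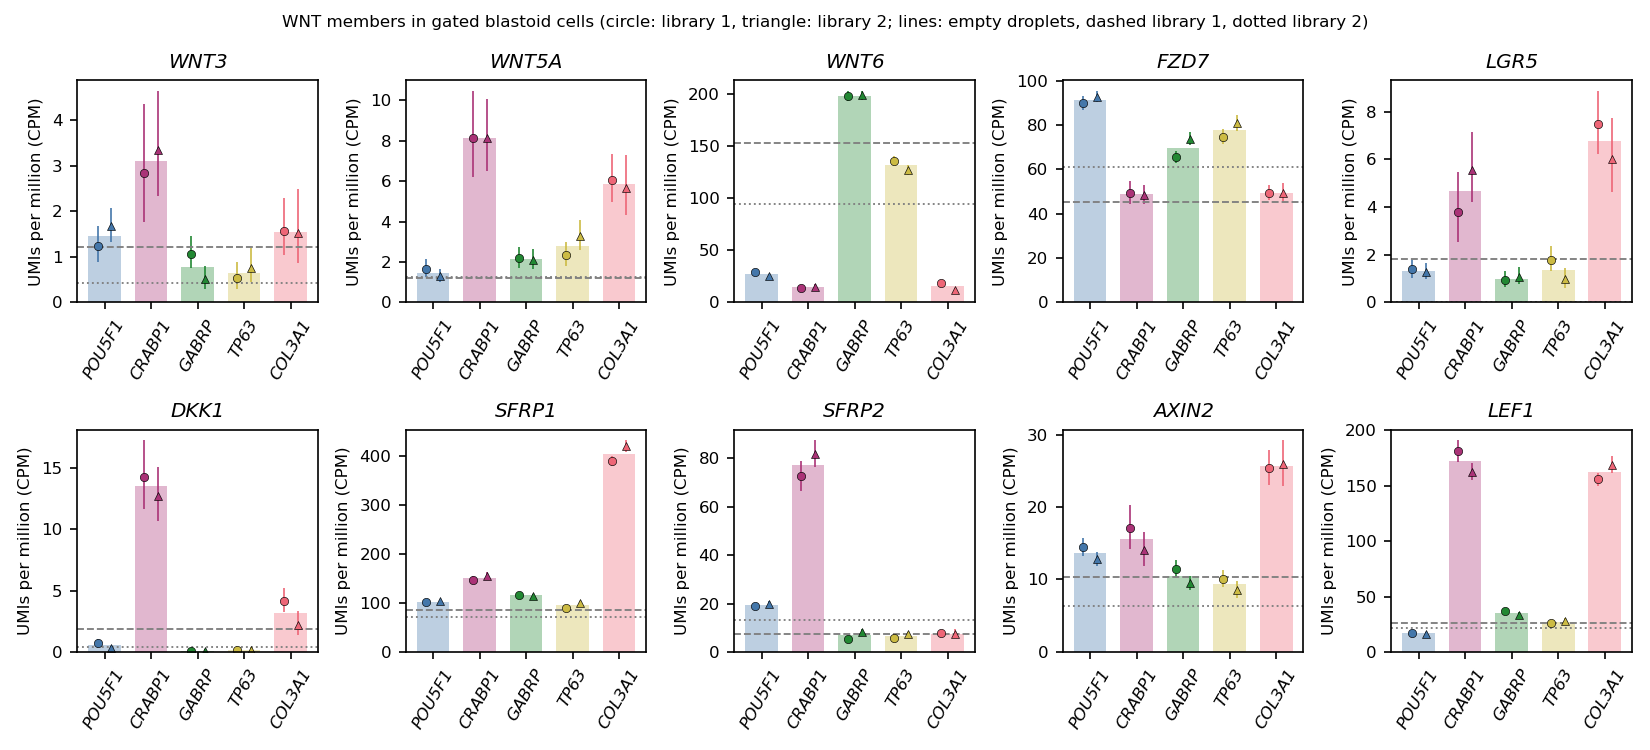
CPM (vertical axis, a separate scale for each gene) of the 10 WNT members in cells of each gate, with circles for library 1, triangles for library 2, bars for their mean, error bars for the exact 95% Poisson interval of the count and grey lines for empty droplets. WNT6 peaks in GABRP, FZD7 in POU5F1, SFRP2 and DKK1 in CRABP1, and SFRP1 and AXIN2 in COL3A1-gated cells.

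WNT6, a ligand found in many epithelia, was highest in GABRP and TP63-gated cells. It reached 198 CPM in both libraries in GABRP-gated cells and 136 and 127 CPM in TP63-gated cells, but 29.5 and 24.9 in POU5F1, 14.1 and 15.0 in CRABP1 and 18.9 and 11.8 in COL3A1-gated cells. The libraries of the first 2 gates did not overlap with those of any other gate. WNT6 was higher in GABRP-gated cells by 2.89 on the log2 scale (SE 0.08, edgeR adjusted p = 3.8e-11) and in TP63-gated cells by 1.98 (SE 0.09), and GABRP exceeded TP63 by 0.73 (adjusted p = 0.00027). Empty droplets held 153 and 94.7 CPM of WNT6, more than the cells of the 3 low gates, whose levels are therefore not read as expression. GABRP-gated cells were above empty droplets in both libraries, but TP63-gated cells in library 2 only. At full depth, 67.1% and 61.3% of TP63-gated cells held at least 3 WNT6 UMIs, against 5.87% and 2.59% of COL3A1-gated cells. The part of free RNA in the TP63 level was not tested. After thinning each cell to 9807 UMIs, 77.1% ± 0.764 (SD, n = 2) of GABRP-gated cells kept a WNT6 UMI, against 6.75% ± 0.297 of COL3A1-gated cells (92.4% and 14.1% before thinning). Cells past both GABRP and TP63, which are left out above, carried the most, 238 and 225 CPM. Of all cells past more than 1 gate, 11.6% and 12.6% were scored as doublets (barcodes that may hold more than 1 cell). In the single gates these shares were 3.32% to 8.94%, and the part of doublets in the WNT6 level was not tested.

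WNT4, a related ligand, had the same 2 high gates, with mean levels of 35 CPM in GABRP and 33.4 CPM in TP63-gated cells and between 4.30 and 5.13 CPM in the others. Its log2 fold changes were 2.35 and 2.10, and empty droplets averaged 21.2 CPM. RNF43, which removes Frizzled receptors from the cell surface, rose in the same gates, by 1.35 and 1.57.

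WNT3 and WNT5A were scarce in every gate and highest in CRABP1-gated cells. WNT3, a ligand of primitive streak formation, stood at 2.85 and 3.35 CPM in CRABP1-gated cells and between 0.506 and 1.67 CPM elsewhere, where empty droplets held 1.22 and 0.427 CPM. The CRABP1 levels rest on 21 and 35 UMIs, and the exact 95% Poisson intervals (1.76 to 4.35 and 2.33 to 4.65 CPM) cover counting error only. Those of empty droplets, on 2 and 1 UMIs, overlapped them (0.148 to 4.41 and 0.0108 to 2.38 CPM). The difference from the other gates was 1.41 on the log2 scale (SE 0.29, edgeR adjusted p = 0.0018). Its lower level in GABRP-gated cells was barely past the threshold (-0.72, adjusted p = 0.0499) and was lost under 7 of 13 alternative settings.

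WNT5A, which signals mostly outside the beta-catenin branch, stood at 8.14 and 8.12 CPM in CRABP1 and at 6.07 and 5.65 CPM in COL3A1-gated cells, against 1.65 and 1.29 CPM in POU5F1-gated cells, close to the 1.22 and 1.28 CPM of empty droplets (2 and 3 UMIs). CRABP1 and COL3A1 did not differ from each other by the test (difference 0.26, adjusted p = 0.33), although their libraries did not overlap. Both gates were called higher than the mean of the others, by 1.42 and 1.10, and the POU5F1 gate lower, by -1.58. Thinned to equal depth, 7.73% ± 0.651 of CRABP1-gated and 1.32% ± 0.0135 of POU5F1-gated cells kept a UMI (SD, n = 2).

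WNT2, a ligand outside the list of members, averaged 39.4 CPM in COL3A1-gated cells and at most 0.738 CPM in any other gate, with a log2 fold change of 6.44 (SE 0.20), which was the largest among the pathway genes named by rule. Of the 19 ligands, 9 were called higher and 4 lower in CRABP1-gated cells (20.4% and 21.2% of all genes), and 6 higher and 6 lower in GABRP-gated cells (26.7% and 22.1%). In TP63-gated cells 4 were higher and 4 lower (21.2% and 20.2%), in COL3A1-gated cells 4 and 7 (26.6% and 25.8%) and in POU5F1-gated cells 1 and 9 (25.7% and 28.1%).

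FZD7, one of the Frizzled receptors, varied least of the members over the gates. In CPM it was 89.7 and 92.8 in POU5F1-gated cells, 74.7 and 80.9 in TP63, 65.5 and 73.7 in GABRP, 49.3 and 49.5 in COL3A1 and 49.4 and 48.6 in CRABP1-gated cells. It was called higher in the POU5F1 gate, by 0.52 (SE 0.05, edgeR adjusted p = 4.2e-06), and also in TP63 (0.32) and GABRP (0.29). In CRABP1 (-0.70) and COL3A1-gated cells (-0.43) it was called lower. Cells past no gate held 84.9 and 93.9 CPM, about the level of the POU5F1 gate. Neighbours in the order of gates by CPM did not differ by the test, apart from GABRP over COL3A1 (0.58, adjusted p = 2.8e-05). Empty droplets held 45.1 and 61.0 CPM, so the COL3A1 and CRABP1 levels were not above them in both libraries. FZD5 showed a wider range, from 258 CPM in CRABP1 and 148 CPM in POU5F1 to 16.2 CPM in COL3A1-gated cells, the last below empty droplets, and FZD2 was highest in COL3A1-gated cells (73.4 CPM on average).

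LGR5, the R-spondin receptor known as a stem cell marker of the intestine, was rare in every gate. It stood at 7.47 and 6.03 CPM in COL3A1-gated cells and at 3.80 and 5.54 CPM in CRABP1-gated cells, and between 0.921 and 1.78 CPM in the other 3 gates. Both high gates were called higher, by 2.06 (SE 0.20) and 1.16 (SE 0.24), while the difference of 0.72 between them was barely past the threshold (edgeR adjusted p = 0.0459) and was lost under 7 of 13 alternative settings. Without the highest cell of each gate and library it was 0.45 (adjusted p = 0.17). The UMIs were concentrated in few cells. In library 1 a single COL3A1-gated cell held 45 of 128 LGR5 UMIs and 5 cells held 64.1% of them, and without that cell the level was 4.85 CPM. Both gates were still called higher than the mean of the others without such cells, by 1.81 and 1.24. The share of cells with a UMI after thinning was higher in CRABP1 (4.81% ± 0.597, SD, n = 2) than in COL3A1-gated cells (3.26% ± 0.0413), opposite to the CPM, so no order of these 2 gates is read from the share. Empty droplets held 3 LGR5 UMIs in library 1 (1.83 CPM) and 0 in library 2, with an upper Poisson bound of 1.57 CPM.

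Of the R-spondins, the ligands of LGR receptors, RSPO3 and RSPO4 were higher in COL3A1-gated cells (log2 fold changes 4.08 and 4.47), and RSPO1 and RSPO2 in CRABP1-gated cells (2.85 and 2.78). RSPO3 was also called higher in CRABP1-gated cells, by 2.16, and RSPO1, RSPO2 and RSPO4 in POU5F1-gated cells, by 2.40, 1.03 and 1.02. Fold changes do not show abundance, and RSPO2 was scarce, at 4.20 and 4.49 CPM in CRABP1-gated cells and between 0.173 and 1.61 CPM elsewhere.

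Of the antagonists, SFRP1 was highest in COL3A1-gated cells, and SFRP2 and DKK1 in CRABP1-gated cells. SFRP1 stood at 391 and 421 CPM in COL3A1-gated cells, followed by CRABP1-gated cells at 147 and 156 CPM. The other gates lay between 89.8 and 117 CPM, close to the 86.6 and 72.5 CPM of empty droplets. The increase in COL3A1-gated cells was 1.90 on the log2 scale (SE 0.05, edgeR adjusted p = 4.5e-12), and 85.7% ± 1.81 (SD, n = 2) of these cells kept an SFRP1 UMI after thinning, against 55.0% to 61.6% in the other gates. In CRABP1-gated cells SFRP1 was not called (-0.13, adjusted p = 0.091), but it was called lower under 5 of 13 alternative settings, among them the library as a block (adjusted p = 0.026), and with total UMIs alone its sign changed (0.05).

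SFRP2, a close relative of SFRP1, stood in CRABP1-gated cells at 72.6 and 81.8 CPM. POU5F1-gated cells followed at 18.9 and 19.6 CPM, and the remaining gates lay between 5.32 and 8.38 CPM, which was not above the 7.32 and 13.2 CPM of empty droplets in both libraries and is not read as expression. It was higher by 2.92 (SE 0.12, edgeR adjusted p = 8.7e-10) in the CRABP1 gate and by 0.51 in the POU5F1 gate, and lower in the other 3. In COL3A1-gated cells, where SFRP1 peaked, its log2 fold change was -1.0. FRZB, another Frizzled-related antagonist, averaged 33.5 CPM in CRABP1, 22.2 CPM in COL3A1 and 10.1 CPM in POU5F1-gated cells, and under 1 CPM in GABRP and TP63-gated cells.

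DKK1 had the widest range of the members. It stood at 14.2 and 12.7 CPM in CRABP1-gated cells and at 4.15 and 2.2 CPM in COL3A1-gated cells, where empty droplets held 1.83 and 0.427 CPM. The Poisson intervals of empty droplets, on 3 and 1 UMIs (0.377 to 5.35 and 0.0108 to 2.38 CPM), overlapped those of COL3A1-gated cells (3.24 to 5.23 and 1.40 to 3.31 CPM). In GABRP-gated cells DKK1 was nearly undetected, with 2 and 3 UMIs in all (0.0576 and 0.0843 CPM), and in TP63-gated cells with 5 and 3 UMIs (0.181 and 0.126 CPM). It was higher in the CRABP1 gate by 4.98 (SE 0.26, edgeR adjusted p = 1.2e-08) and in the COL3A1 gate by 2.70 (SE 0.32), and these 2 gates differed by 1.82 (adjusted p = 0.00033).

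Few cells carried DKK1. Thinned to equal depth, 8.18% ± 0.805 (SD, n = 2) of CRABP1-gated cells kept a UMI, against 0.0537% ± 0.0417 of GABRP-gated cells. In the POU5F1 gate of library 1, 1 cell held 17 of its 25 UMIs. With the highest cell of each gate and library left out DKK1 was called lower in POU5F1-gated cells (-1.33), whereas with all cells it was not (-0.85, adjusted p = 0.10).

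Over the whole list of 19 secreted and surface antagonists, of which 18 were tested, 9 were called higher and 1 lower in CRABP1-gated cells, and 8 higher and 4 lower in COL3A1-gated cells. In GABRP and TP63-gated cells 2 and 1 were higher, and 10 were lower in each, and in POU5F1-gated cells 2 were higher and 5 lower, to be read against the shares of all genes given for the ligands. DRAXIN, an antagonist and axon guidance protein, was higher in CRABP1-gated cells by 2.34.

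**Figure D3:**
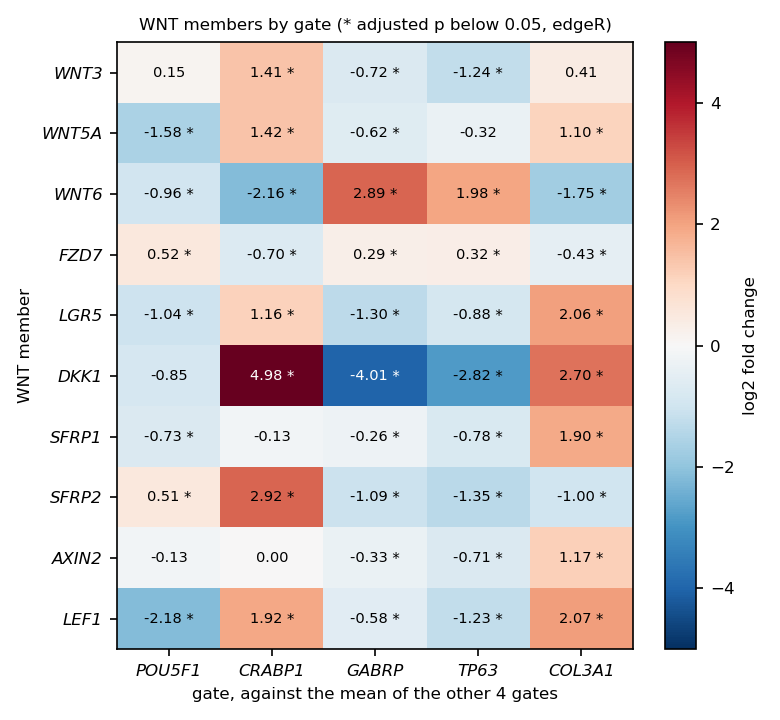
Log2 fold change (colour and number) of each WNT member (rows) in cells of each gate against the mean of the other 4 gates (columns), with an asterisk where the edgeR adjusted p is below 0.05. The COL3A1 and CRABP1 columns each hold 6 called increases, and the GABRP and TP63 columns hold 2 each.

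LEF1, the transcription factor that binds beta-catenin at target genes, had 2 high gates. It stood at 181 and 163 CPM in CRABP1-gated cells and at 156 and 169 CPM in COL3A1-gated cells, and these ranges overlapped. GABRP-gated cells held 36.5 and 33.8 CPM, TP63-gated cells 25.7 and 28.1 CPM, not above empty droplets in library 1, and POU5F1-gated cells 17.0 and 16.5 CPM, the last below the 26.2 and 21.8 CPM of empty droplets. LEF1 was higher in COL3A1-gated cells by 2.07 (SE 0.05, edgeR adjusted p = 3.8e-12) and in CRABP1-gated cells by 1.92 (SE 0.05), and lower in POU5F1-gated cells by -2.18 (SE 0.07). The difference between the 2 high gates was -0.12 (CRABP1 minus COL3A1, SE 0.07, adjusted p = 0.18), and it changed sign with total UMIs alone (0.08) and with gates at 200 CPM (0.01). Cells past both GABRP and TP63 held more LEF1 than either gate alone, 57.9 and 54.7 CPM, and the part of doublets in this level was not tested.

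AXIN2 had 1 high gate. It stood at 25.3 and 26.0 CPM in COL3A1-gated cells, at 17.1 and 14.1 CPM in CRABP1, 14.4 and 12.8 in POU5F1, 11.5 and 9.47 in GABRP and 10.1 and 8.58 in TP63-gated cells. Only the COL3A1 libraries were apart from all others. AXIN2 was higher there by 1.17 (SE 0.10, edgeR adjusted p = 3.4e-07), lower in GABRP-gated cells by -0.33 and in TP63-gated cells by -0.71, and in CRABP1-gated cells its log2 fold change was 0.00 (SE 0.11). Empty droplets held 10.4 and 6.40 CPM, about the level of the GABRP and TP63 gates. At equal depth 22.3% ± 0.729 (SD, n = 2) of COL3A1-gated cells kept an AXIN2 UMI, and 7.87% to 12.0% in the other gates.

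The promoters of the members were read for the binding letters of LEF1 and the TCF factors, since AXIN2, LEF1 and DKK1 were all called higher in COL3A1-gated cells. The letters searched were CTTTGAA and its variant CTTTGAT as well as the form CTTTGTA and its variant CTTTGTT on either strand, within 300 bases before the annotated start of each gene (RefSeq, Sscrofa11.1). A match was found before 4 of 10 members and before 14.2% of the 20663 promoters searched, and no match says only that these letters are not in that window. The 4 windows are shown 5′ to 3′ on the strand of the gene, ending at the base before its start, with the motif in capitals. They lie at chr12:12343208-12343507 (minus strand, AXIN2), chr8:113824211-113824510 (plus strand, LEF1), chr14:97490119-97490418 (minus strand, DKK1) and chr15:105643864-105644163 (plus strand, FZD7).

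AXIN2: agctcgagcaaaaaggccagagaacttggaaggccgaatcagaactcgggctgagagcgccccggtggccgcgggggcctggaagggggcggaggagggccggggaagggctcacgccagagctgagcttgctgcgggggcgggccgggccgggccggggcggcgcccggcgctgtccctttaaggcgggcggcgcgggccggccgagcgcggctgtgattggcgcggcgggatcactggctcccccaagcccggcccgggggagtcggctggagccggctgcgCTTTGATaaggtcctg
LEF1: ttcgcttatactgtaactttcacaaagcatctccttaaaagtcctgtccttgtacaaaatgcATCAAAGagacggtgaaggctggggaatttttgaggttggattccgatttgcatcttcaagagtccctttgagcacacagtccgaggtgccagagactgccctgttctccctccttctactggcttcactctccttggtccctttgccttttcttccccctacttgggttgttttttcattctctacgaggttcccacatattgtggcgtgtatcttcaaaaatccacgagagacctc
DKK1: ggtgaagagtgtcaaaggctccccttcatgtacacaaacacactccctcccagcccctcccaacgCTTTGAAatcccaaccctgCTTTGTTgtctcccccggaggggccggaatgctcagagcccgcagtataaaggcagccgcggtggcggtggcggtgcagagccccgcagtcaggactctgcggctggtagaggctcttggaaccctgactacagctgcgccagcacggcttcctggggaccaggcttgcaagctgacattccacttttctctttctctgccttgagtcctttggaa
FZD7: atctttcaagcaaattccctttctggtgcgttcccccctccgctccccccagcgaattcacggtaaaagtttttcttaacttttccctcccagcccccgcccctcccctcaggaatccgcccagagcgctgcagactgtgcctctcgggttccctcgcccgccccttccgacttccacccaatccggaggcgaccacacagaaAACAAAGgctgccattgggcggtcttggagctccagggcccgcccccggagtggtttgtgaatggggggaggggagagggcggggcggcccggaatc

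The match lay 16 bases before the start of AXIN2, 238 before LEF1, 235 and 216 before DKK1 and 97 before FZD7, and those of LEF1 and FZD7 were on the reverse strand. FZD7, with a match, was lower in COL3A1-gated cells, and WNT5A, SFRP1 and LGR5, without one in this window, were higher there. The genes lie on chromosome 12 (AXIN2, positions 12311293 to 12343207, and WNT3, 17627291 to 17681197), chromosome 8 (LEF1, 113824511 to 113944078, and SFRP2, 75337311 to 75345926), chromosome 14 (DKK1, 97487854 to 97490118), chromosome 15 (WNT6, 120901471 to 120917359, and FZD7, 105644164 to 105648860), chromosome 13 (WNT5A, 37344684 to 37367215), chromosome 17 (SFRP1, 10436414 to 10489773) and chromosome 5 (LGR5, 35463257 to 35595234).

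The increase of targets in COL3A1-gated cells extended beyond the members. Of 23 common targets listed, 20 were tested, and 18 of them were called higher and 2 lower there (26.6% and 25.8% of all genes), with a median log2 fold change of 2.02 against -0.01 for all genes. The members AXIN2, LEF1, LGR5 and DKK1 are 4 of these. NKD1, a feedback inhibitor, averaged 169 CPM in COL3A1-gated cells and 21.6 CPM in CRABP1-gated cells (log2 fold change 5.41, SE 0.13). MSX1, a homeobox gene that BMP signalling also induces, averaged 234 CPM and was higher by 4.19. SP5, NOTUM and MYC were higher by 4.72, 3.59 and 2.02. The 2 exceptions were RNF43 (-1.34) and ASCL2 (-2.13).

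In CRABP1-gated cells 8 of the 20 were higher and 5 lower (20.4% and 21.2% of all genes), with a median log2 fold change of -0.04. SP5 (2.41), NOTUM (1.64) and NKD1 (1.40) were among the higher ones and BAMBI (-1.12) and CDX2 (-2.78) among the lower. TP63-gated cells had 1 higher and 15 lower (21.2% and 20.2% of all genes), GABRP-gated cells 4 and 14 (26.7% and 22.1%), and POU5F1-gated cells 2 and 11 (25.7% and 28.1%). CCND1 and ASCL2 were the 2 targets called higher in POU5F1-gated cells, by 1.18 and 1.41. The nuclear partner CTNNB1 was higher in COL3A1-gated cells by 1.01 and lower in POU5F1-gated cells by -0.75. Many of these genes answer to other pathways as well, and the part of the culture additives in these levels was not tested, because all blastoids received the same medium.

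**Figure D4:**
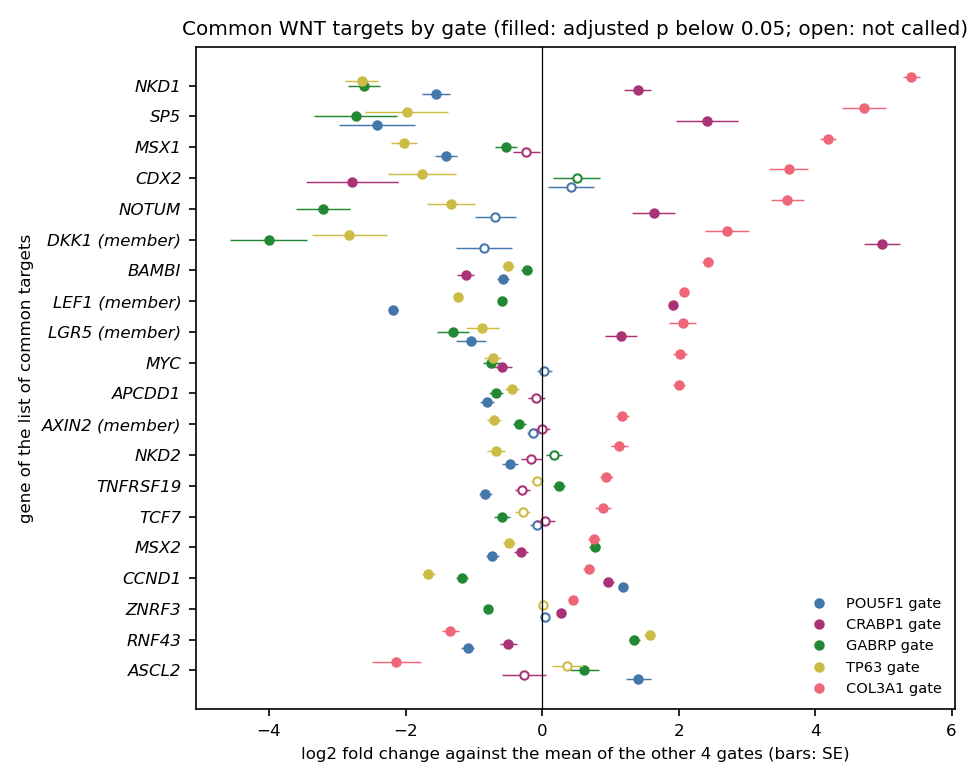
Log2 fold change (horizontal axis, with SE bars) of the 20 tested common WNT targets (vertical axis) in cells of each gate against the mean of the other 4, with filled points where the edgeR adjusted p is below 0.05. The points of the COL3A1 gate lie right of 0 for all genes but RNF43 and ASCL2.

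Within the gates some members varied with other genes and others did not. The following splits were chosen after the values by gate were seen and are given without a test. Each used a cut at 3 UMIs, which deeper cells pass more easily, and the part of depth was not tested. Among CRABP1-gated cells, 53 and 71 cells held at least 3 UMIs of the 4 neural crest genes SOX10, FOXD3, SCRG1 and TFAP2B in sum, and 211 and 338 did not. AXIN2 stood at 32.8 and 31.0 CPM in cells with these genes and at 12.6 and 9.38 CPM in cells without, against 25.3 and 26.0 CPM in COL3A1-gated cells. SOX10 and SCRG1 were called higher in the CRABP1 gate only. TFAP2B was also called higher in GABRP and TP63-gated cells (1.46 and 0.49) and FOXD3 in POU5F1-gated cells (2.56), so the split names no cell type. SFRP1 and SFRP2 were lower in cells with these 4 genes in both libraries. SFRP1 was at 65.5 and 63.4 CPM with and 171 and 182 CPM without, and SFRP2 at 10.3 and 25.7 CPM with and 90.5 and 97.2 CPM without. The SFRP1 levels with these genes lay below the 86.6 and 72.5 CPM of empty droplets and are not read as expression. LGR5 had 0 UMIs in cells with these genes in both libraries (upper Poisson bounds 2.24 and 1.63 CPM) and 4.89 and 7.07 CPM in the rest. DKK1 split the libraries, at 21.2 CPM in library 1 and 1.33 CPM in library 2 in cells with these genes.

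Cells with at least 3 UMIs of PAX6 and SOX1 together, neural plate genes, numbered 66 and 87 in the CRABP1 gate. PAX6 was also called higher in GABRP-gated cells (0.88), so this split names no cell type either. The cells with these 2 genes carried SFRP2 at 146 and 138 CPM, compared with 48.2 and 63.3 CPM in the other CRABP1-gated cells. LGR5 was at 12.0 and 8.14 CPM with and 1.08 and 4.69 CPM without, and LEF1 at 241 and 197 CPM with and 161 and 151 CPM without. AXIN2 did not separate by these genes (16.4 and 13.2 CPM with, 17.3 and 14.3 CPM without).

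**Figure D5:**
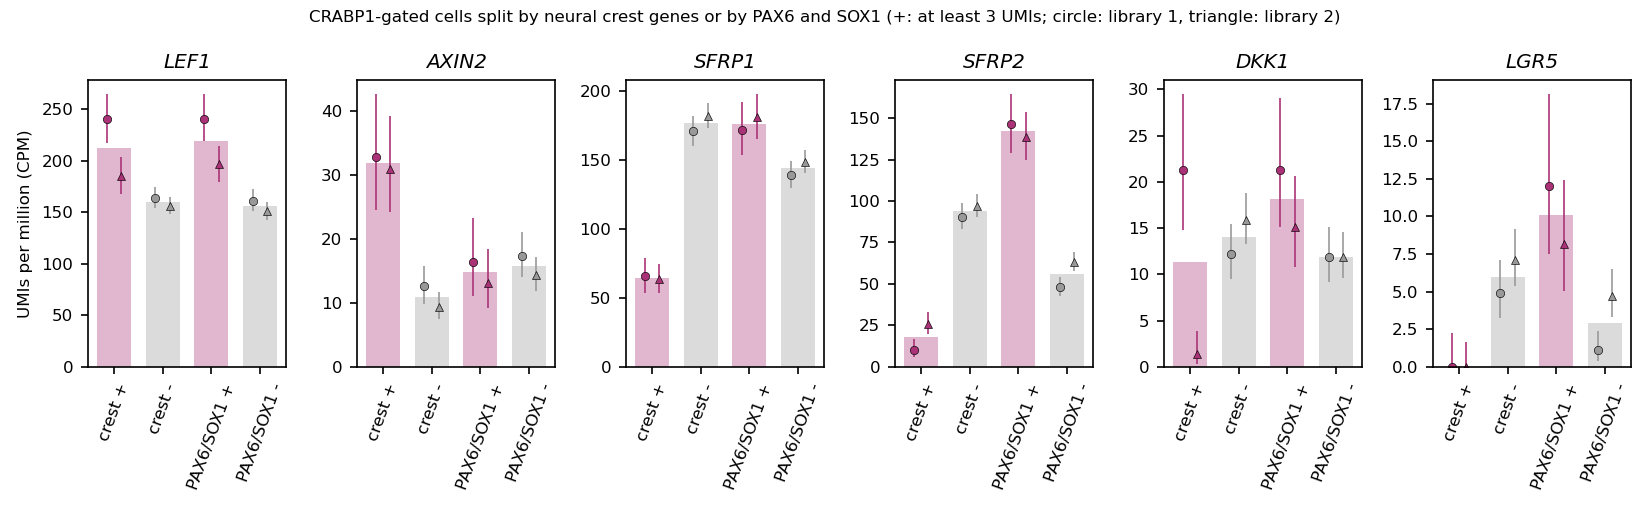
CPM (vertical axis, a separate scale for each gene) of 6 WNT members in CRABP1-gated cells with (+) and without (-) at least 3 UMIs of 4 neural crest genes, or of PAX6 and SOX1, with circles for library 1, triangles for library 2, bars for their mean and error bars for the exact 95% Poisson interval. AXIN2 is higher in cells with the neural crest genes, SFRP1, SFRP2 and LGR5 are lower there, and SFRP2 is highest with PAX6 and SOX1.

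POU5F1-gated cells were split by DNMT3B, a DNA methyltransferase of pluripotent cells, at 3 UMIs (331 and 636 cells with, 483 and 703 without). SFRP1 was at 125 and 120 CPM with and 81.2 and 84.8 CPM without, and SFRP2 at 25.3 and 24.7 CPM with and 13.0 and 13.6 CPM without. FZD7 was lower with DNMT3B, at 79.6 and 80.8 CPM against 99 and 107 CPM. WNT6 was also lower with DNMT3B, at 16.3 and 11.5 CPM against 41.6 and 40.8 CPM, all below the empty droplets. Cells with DNMT3B had more UMIs (medians 44903 and 39682.5 against 34767 and 30244), and the part of depth in these values was not tested. Split instead by GATA3, a trophectoderm and amnion gene (514 and 700 cells with, 300 and 639 without), WNT6 was at 38.1 and 35.9 CPM with and 13.0 and 11.4 CPM without, and SFRP1 at 85.7 and 84.1 CPM with and 134 and 129 CPM without. These WNT6 levels were all below the 153 and 94.7 CPM of empty droplets. SFRP1 with GATA3, and without DNMT3B, was not above the 86.6 and 72.5 CPM of empty droplets in both libraries.

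In COL3A1-gated cells, a split by the cardiac list at 3 UMIs in sum (305 and 195 cells with, 291 and 269 without) separated AXIN2, LEF1 and SFRP1 little. AXIN2 was at 24.7 and 23.5 CPM with and 26.2 and 28.0 CPM without, LEF1 at 159 and 165 CPM with and 151 and 172 CPM without, and SFRP1 at 398 and 436 CPM with and 382 and 408 CPM without. LGR5 turned between the libraries, at 3.98 and 7.43 CPM with and 11.9 and 4.82 CPM without.

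In the order of gates for each member, 19 of 40 neighbouring pairs differed by the test, and 16 of these 19 did so under all 13 alternatives. The exceptions were LGR5 between COL3A1 and CRABP1 (lost under 7), DKK1 between POU5F1 and TP63 (lost under 4) and WNT6 between POU5F1 and COL3A1 (lost under 2). Over all genes the same test called 24.8% between GABRP and TP63, 41.6% between CRABP1 and TP63, 43.4% between CRABP1 and COL3A1, 44.7% between POU5F1 and CRABP1 and 49.2% between CRABP1 and GABRP. The other pairs had 50.1% (POU5F1 and TP63), 50.9% (TP63 and COL3A1), 53% (GABRP and COL3A1), 54.4% (POU5F1 and GABRP) and 55.8% (POU5F1 and COL3A1). LEF1, WNT6 and DKK1 had 3 of 4 steps that differed, and WNT3 had none. For 8 of 10 members the gate with the highest CPM also had the largest share of cells with a UMI, the exceptions being LEF1 and LGR5.

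Over the 10 sums of library and gate, the genes with the most similar pattern (Pearson r of log2(CPM + 1), a description over points that share 2 libraries) included other pathway genes for 2 members. For SFRP2 the closest was RSPO2 (r = 0.995), and for LGR5 the second closest was FZD1 (r = 0.980) after LAMA2 (r = 0.985). SFRP1 was closest to COL1A1 (r = 0.997), a fibrillar collagen gene, and among the 3 genes closest to WNT6 were PDLIM1 (r = 0.994) and ABCC5 (r = 0.993). LEF1 was closest to LPAR1 (r = 0.991) and SOX5 (r = 0.988), AXIN2 to PRKAR1A (r = 0.990), DKK1 to LOC106505741 (r = 0.989) and SCUBE1 (r = 0.988), FZD7 to FOLH1B (r = 0.988), WNT5A to BZW2 (r = 0.984) and WNT3 to TMEFF2 (r = 0.973).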

How the data were processed

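The authors trimmed bulk reads with Trim Galore 0.6.4, mapped them to susScr11 with HISAT2 2.2.1 and deposited FPKM per transcript from StringTie 2.2.1, without counts, so the depth of the bulk libraries is unknown. FPKM were summed here per gene symbol. For single cells, the authors deposited raw UMI counts of every barcode from Cell Ranger 7.1.0 on susScr11. The reference used here for coordinates, Sscrofa11.1, is the same assembly.

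Barcodes above 1/10 of the 99th percentile among the expected number of cells were kept as cells. UMIs were summed per library and gate, which gave 10 sums. edgeR 4.0.16 (filterByExpr, TMM, quasi-likelihood test, Benjamini-Hochberg over 17927 genes) compared each gate with the mean of the others and each pair of gates, all in 1 fit. CPM divide a gene's UMIs by the total of its sum, without TMM. On simulated counts for the POU5F1 gate, 197 of 200 changed genes were called and 13 of 15379 unchanged ones. The simulation used the common dispersion (0.00333), had no library effect and changed few genes, so these rates need not hold for the member calls. Doublets (434 and 535 highest Scrublet scores, scanpy 1.11.5, since the automatic threshold marked 1 and 0 cells) were removed only in an alternative. DESeq2 1.42.0 was another alternative.

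The 5 gates of a library were prepared together. Deviations from gate means correlated between gates of 1 library at 0.053 to 0.18 (10 pairs), so a fit with the library as a replicate block was compared.

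Members, pathway lists and marker lists were chosen with earlier results of these data known. Named by rule were the members, the 3 genes most like each, and for each gate the 3 pathway genes with the largest called increase and decrease that reach 20 CPM in 1 gate. Of the named genes and marker genes, 2 are not reported here. Other pathway genes were named after their values were seen. Of the marker genes, KRT14 and KRT17 had no row in the count tables. Free RNA was measured in 118122 and 165131 empty droplets.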

Additional observations from a re-analysis of the deposited data

Results flagged for a closer look

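Barcodes with at least 1000 UMIs but below the cell threshold (3108 and 3661) entered no comparison. LEF1 averaged 59.1 CPM there over 2 libraries (71.1 and 47.1), above the 26.2 and 21.8 CPM of empty droplets. SFRP1 averaged 122 CPM (122 in each library), above 86.6 and 72.5 CPM. SFRP2 averaged 24.0 CPM (20.8 and 27.2), above 7.32 and 13.2 CPM. In each case the exact 95% Poisson intervals, which cover counting error only, did not overlap within either library.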

How the results depend on the processing

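Of the 43 calls, 38 were kept under all 13 alternatives, none was called in the opposite direction, and single alternatives lost 0 to 3 and gained 0 to 2. The 5 calls lost somewhere were WNT3 in GABRP-gated cells (7 alternatives), AXIN2 in GABRP-gated cells (2), and FZD7 and SFRP1 in GABRP-gated cells and LGR5 in TP63-gated cells (1 each). With the library as a replicate block all 43 calls were kept and 1 was gained (SFRP1 in CRABP1-gated cells), and 22 instead of 19 neighbouring pairs differed. AXIN2 in CRABP1-gated cells, at 0.00, turned to -0.00247 with the gate at 50 CPM, -0.0601 without doublets, -0.0427 with barcodes of at least 5000 UMIs, -0.0211 without a filter on low counts and -0.0294 without the highest cell, and SFRP1 there turned to 0.0523 with total UMIs alone. With the highest transcript of each library alone, 6 of 10 members kept their place in the order of mean FPKM. Leaving out 1 bulk library kept 7 to 10 in place, and 5 members at 1 FPKM or more each time. Leaving out a single-cell library left 1 sum per gate and so a value without a test, taken from log2(CPM + 1) without TMM. None of the 43 called directions turned, while the uncalled WNT3 in POU5F1-gated cells did. The uncalled SFRP1 in CRABP1-gated cells was above 0 in either library, as with total UMIs alone, so its turn is not read as an effect of leaving out a library. The alternatives with total UMIs alone, with cells past GABRP and TP63 as a group and without the highest cell were chosen after seeing the data. WNT3, WNT5A, DKK1 and LGR5 rest on 2 to 133 UMIs per gate and library, which limits their precision.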
